A study of Mus musculus with 6 samples.

Results

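Receptors for neuropeptide Y (NPY), somatostatin and cholecystokinin (CCK), together with the CCK gene itself, were followed in the ventral dentate gyrus of stressed and unstressed mice. The set was taken by symbol and holds 9 of the 24062 gene symbols counted: the NPY receptor genes Npy1r, Npy2r and Npy5r, the somatostatin receptor genes Sstr1, Sstr2, Sstr3 and Sstr4, and Cck with its brain receptor gene Cckbr. Each group held 3 libraries of total RNA, from male C57black 6 mice after Chronic Restrained Stress and from male C57black 6 mice labelled Not-stressed Controls. The labels give neither the age of the mice, nor the length of restraint, nor whether a library pooled animals. All 9 genes passed the filter on low counts that left 14058 genes for testing.

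NPY, somatostatin and CCK are peptides that cortical and hippocampal interneurons release beside GABA, and in the dentate gyrus NPY and somatostatin mark interneurons of the hilus whose axons reach the outer dendrites of granule cells. Their receptors sit in the membrane and signal through G proteins. NPY and somatostatin receptors couple mainly to Gi and Go, which lower cyclic AMP and open inwardly rectifying potassium channels, and so tend to quiet the cell or its terminals. The CCK-B receptor couples mainly to Gq and phospholipase C, and tends to excite. NPY is widely studied as a peptide that counters the behavioural effects of stress, and CCK acting on its brain receptor as one that promotes anxiety.

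No gene of the set passed the test of stress against control, and those nearest to it lay in both directions. The somatostatin receptor gene Sstr4 was higher in every stress library than in any control library. Sstr1, Npy1r and Npy5r were lower in every stress library than in any control library, and Cckbr was low in 2 of the 3. Cck, which stood far above the others in level per length, overlapped between the groups. By edgeR's quasi-likelihood test adjusted over all tested genes, 0 of the 9 were called in either direction, against 0% of all tested genes called higher and 0.0285% called lower. An unadjusted p under 0.05 was reached by 4 of the 9, 1 higher (Sstr4) and 3 lower (Npy1r, Sstr1 and Cckbr). Of all tested genes 8.71% reached it, 3.86% as higher and 4.85% as lower. Stress and control libraries were without overlap for 4 of the 9, 1 higher (Sstr4) and 3 lower (Npy1r, Sstr1 and Npy5r). Of all tested genes 14.6% were without overlap, 6.76% higher and 7.84% lower. DESeq2 called 1 of the 9 higher, Sstr4, and 0 lower, where it called 0.278% of its tested genes higher and 0.484% lower.

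One library stood apart before any comparison was made. Stress replicate 1 held 4737 CPM (counts set to a common library total) summed over 6 choroid plexus markers, against 24.3 to 32.6 CPM in the other 5 libraries. Its sum over 7 striatum and amygdala markers was 735 CPM, against 155 to 176 CPM elsewhere. All 6 granule neuron markers were detected in every library, but their sum was 488 CPM in stress replicate 1, where the remaining stress libraries had 884 and 1013 CPM and the controls 743 to 991 CPM. Markers of interneurons, the cells that make these peptides, summed to 1240 to 1280 CPM in stress and 1164 to 1356 CPM in controls over 10 of 10 detected. Within that sum the markers lay in both directions. Of the 10, 3 were lower in every stress library than in any control: Gad1, Pvalb and Reln. The 1 that was higher was Npy, one of the ligands reported below, and so not a separate observation. Sst, another ligand in the list, overlapped between the groups. Of the 9 genes, 5 had their lowest level and 2 their highest in stress replicate 1. Of all tested genes, 25.2% had their lowest level and 25.7% their highest in that library. With that library left out, edgeR again called 0 of the 9, where it called 0.0775% of all tested genes higher and 0.211% lower. In that fit 1 of the 9 was higher and 2 were lower at an unadjusted p under 0.05, where 5.40% of all tested genes were higher and 6.13% lower. Markers of thalamus and habenula set the groups apart in all libraries. Their sum over 5 of 5 detected was 172, 228 and 188 CPM in stress replicates 1, 2 and 3, against 313, 331 and 335 CPM in control replicates 1, 2 and 3. Each of the 5 was lower in every stress library than in any control. The gap was narrow for Nwd2, at 62.99 CPM in stress replicate 2 against 63.24 CPM in control replicate 2, and for Tcf7l2. Of the 6 astrocyte and the 5 vascular and meningeal markers, 3 each were lower without overlap and 0 higher. The hilar mossy, CA3, CA1 and subiculum, striatum and amygdala, and choroid plexus lists each had 1 higher and 0 lower. Over all tested genes, 7.84% were lower and 6.76% higher without overlap. The part of these markers in the levels of Sstr1, Npy1r, Npy5r and the other genes was not tested. In bulk tissue, fewer cells of a type and less RNA per cell cannot be told apart.

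The stretches upstream of 4 genes are shown because Sstr4 had the smallest p of the set, Cck and Cckbr are a peptide and its receptor, and the Sstr2 window was the one with a cyclic AMP response element. Each stretch runs from 250 to 51 bases before the RefSeq start on GRCm38.p6 and holds no GENCODE exon. It is written 5′ to 3′ on the gene's strand, with motif matches in capitals. Sstr4 lies at chr2:148395127-148395326 (+), Cckbr at chr7:105425481-105425680 (+), Cck at chr9:121495745-121495944 (−) and Sstr2 at chr11:113619077-113619276 (+).
Sstr4: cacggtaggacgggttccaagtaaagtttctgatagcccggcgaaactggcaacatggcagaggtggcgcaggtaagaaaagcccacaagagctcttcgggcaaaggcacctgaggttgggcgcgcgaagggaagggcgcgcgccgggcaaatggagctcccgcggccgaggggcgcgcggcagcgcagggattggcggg
Cckbr: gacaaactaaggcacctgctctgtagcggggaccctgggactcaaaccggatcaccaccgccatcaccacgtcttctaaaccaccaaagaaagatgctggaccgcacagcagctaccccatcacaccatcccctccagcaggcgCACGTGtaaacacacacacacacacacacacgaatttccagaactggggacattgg
Cck: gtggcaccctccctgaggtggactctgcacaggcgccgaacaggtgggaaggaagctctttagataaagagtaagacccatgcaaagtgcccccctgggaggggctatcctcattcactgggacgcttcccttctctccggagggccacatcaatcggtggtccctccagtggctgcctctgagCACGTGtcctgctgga
Sstr2: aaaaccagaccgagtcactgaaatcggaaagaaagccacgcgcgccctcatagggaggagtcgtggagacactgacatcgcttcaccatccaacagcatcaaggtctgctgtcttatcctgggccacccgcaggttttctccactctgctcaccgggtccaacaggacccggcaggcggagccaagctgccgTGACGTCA
A RefSeq window was matched for 8 of the 9 genes, all but Sstr1. On both strands the search covered the cyclic AMP response element TGACGTCA, the GC box GGGCGG, the TATA box TATAAA and the canonical E-box CACGTG. Sstr2 held the response element, which 0.828% of 32851 windows of the same length hold. Cck and Cckbr each held the E-box, which 4.34% of windows hold. Npy2r held a GC box, which 24.6% of windows hold. In the Sstr4 window no match to any of the 4 was found. For every gene, bases closer to the start than 51 were not searched, so a motif there would be missed. These are matches of letters, and no binding was measured.

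Reads of the 9 genes can be told apart from each other by sequence. Of them, Npy2r, Npy5r and all 4 somatostatin receptor genes have their longest coding sequence in 1 exon, Npy1r in 2, Cck in 3 and Cckbr in 5. The longest run shared between transcripts of any pair was 23 bases, between Sstr1 and Sstr3, against a read length of 100 bases. None of the 100-base stretches in the transcripts of the 9 genes occurs in a transcript of another gene. On GRCm38, Npy1r (chromosome 8, 66697192 to 66706792, plus strand) and Npy5r (chromosome 8, 66679965 to 66688128, minus strand) are transcribed away from each other, with 9064 bases between their starts and no annotated gene there. Sstr2 (chromosome 11, 113619342 to 113626028) lies within the span of Slc39a11 on the opposite strand without sharing exon bases, and the other 8 genes overlap no annotated gene. Counts of the set ran from 54 for Cckbr in stress replicate 3, with an exact Poisson 95% interval of 40.6 to 70.5 for counting error alone, to 1542 for Cck in control replicate 2, with an interval of 1466 to 1621.

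To compare genes with each other, levels were divided by merged exon length, giving CPM per kilobase. Cck led in both groups, with 97.1 ± 11.0 CPM per kilobase in stress and 108 ± 8.25 in controls (SD, n = 3 each). In stress libraries the order after Cck was Npy2r at 21.7 ± 10.6, Sstr4 at 20.8 ± 2.78, Sstr1 at 12.04 ± 3.26, Npy1r at 9.18 ± 1.46, Sstr3 at 8.54 ± 0.901, Sstr2 at 5.65 ± 2.23, Npy5r at 3.63 ± 0.264 and Cckbr at 3.16 ± 1.68 CPM per kilobase. In control libraries it was Sstr1 at 16.9 ± 1.42, Npy2r at 15.98 ± 4.53, Npy1r at 13.1 ± 0.824, Sstr4 at 12.6 ± 2.65, Sstr3 at 7.25 ± 0.944, Sstr2 at 6.18 ± 0.583, Cckbr at 5.23 ± 0.443 and Npy5r at 4.26 ± 0.319. By mean, Sstr4 thus stood above Sstr1 and Npy1r in stress libraries and below both in controls. Neighbours in this order whose libraries overlapped, and so cannot be ranked, were in stress Npy2r with Sstr4 and each pair from Sstr1 down to Cckbr, and in controls each pair from Sstr1 down to Sstr4, and Sstr3 with Sstr2.

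Among the NPY receptors, Npy1r encodes Y1, a mainly postsynaptic receptor found on dendrites and cell bodies, including those of granule cells. Npy1r was measured at 26.5, 32.02 and 36.6 CPM in stress replicates 1, 2 and 3, against 44.8, 42.6 and 48.2 CPM in control replicates 1, 2 and 3. The highest stress library lay below the lowest control. Its log2 fold change of -0.51 (SE 0.12) had an adjusted p of 0.282 by edgeR's quasi-likelihood test and 0.0797 by DESeq2. Leaving out stress replicate 1 gave -0.39 with an edgeR adjusted p of 0.117, and adjusted p-values ran from 0.0797 to 0.819 over all alternatives.

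Npy5r, the gene of Y5, a receptor best known for its part in feeding and often present in the same cells as Y1, had the lowest level per kilobase of the NPY receptor genes. It stood at 8.51, 9.78 and 9.56 CPM in stress replicates 1, 2 and 3, against 10.4, 10.4 and 11.8 CPM in control replicates 1, 2 and 3. The groups did not overlap, but the gap between the nearest libraries was small, and a log2 fold change of -0.23 (SE 0.13) had an adjusted p of 0.691. The limma-voom 95% interval of the difference, -0.53 to 0.07, includes 0.

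Npy2r encodes Y2, the mainly presynaptic receptor through which NPY limits transmitter release, in the hippocampus above all at excitatory terminals. It was at 115, 47.6 and 58.6 CPM in stress replicates 1, 2 and 3, against 71.8, 45.1 and 45.3 CPM in control replicates 1, 2 and 3. Stress replicate 1 was far above the other stress libraries, and the groups overlapped. The log2 fold change of 0.45 (SE 0.31, adjusted p = 0.769) was -0.02 without that library and 0.70 without control replicate 1. Markers of CA3 pyramidal neurons, 6 of 6 detected, all peaked in stress replicate 1. Their sum was 1548, 1031 and 1090 CPM in stress replicates 1, 2 and 3, against 972, 829 and 975 CPM in control replicates 1, 2 and 3. Among them Bok was at 59.1, 16.2 and 18.3 CPM in stress replicates 1, 2 and 3. In control replicates 1, 2 and 3 it was at 25.3, 15.3 and 18.6 CPM. In both groups Bok was thus highest in the library where Npy2r was highest. Among controls, every marker of the list except Sv2b was highest in control replicate 1. Sv2b, the largest part of the sum, was at 501, 475 and 624 CPM in control replicates 1, 2 and 3. The part of these markers in the Npy2r level was not tested.

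**Figure D1:**
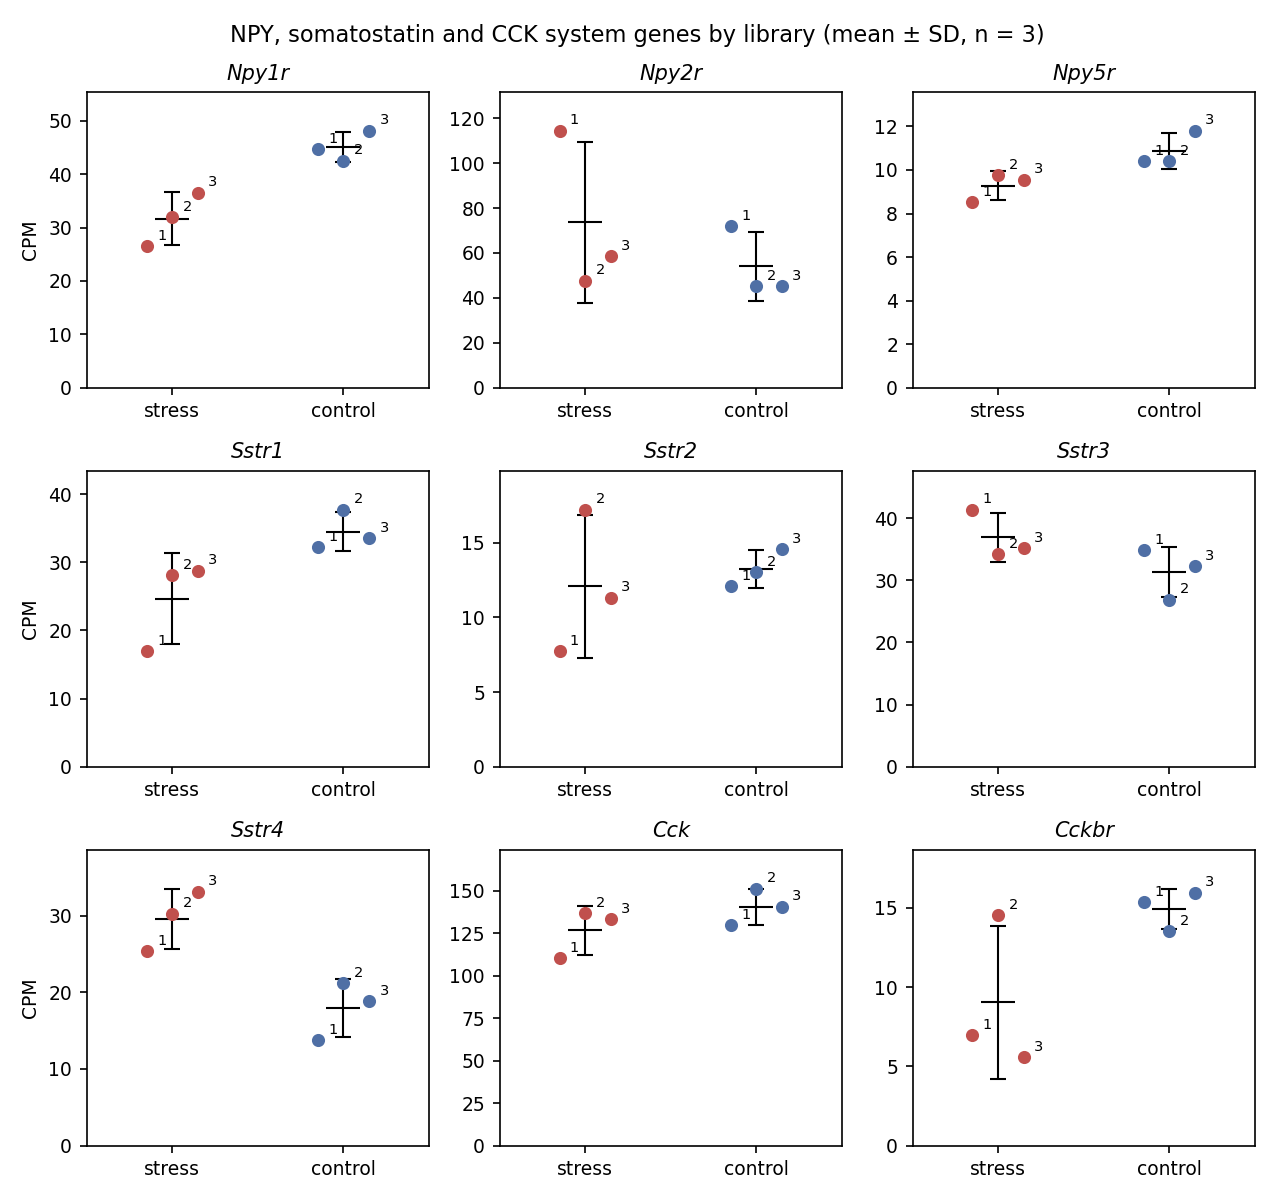
Level of each gene in CPM (y axis, from 0) in the stress libraries (red, left) and control libraries (blue, right), with the replicate number beside each point and the mean ± SD in black. Sstr4 lies at 25.3 to 33.1 CPM in stress, above all controls, Npy1r at 26.5 to 36.6 CPM, below all controls, and Npy2r reaches 115 CPM in stress replicate 1.

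The somatostatin receptors carried the widest split within a family. Sstr4, on chromosome 2 from 148395344 to 148396767 as a gene of 1 exon, encodes a receptor that is abundant in the hippocampus, where in rodents it is tied to potassium currents and control of excitability. It was measured at 25.3, 30.3 and 33.1 CPM in stress replicates 1, 2 and 3, against 13.8, 21.2 and 18.8 CPM in control replicates 1, 2 and 3. Every stress library lay above every control, with a mean of 29.6 ± 3.95 CPM in stress and 17.9 ± 3.77 CPM in controls (SD, n = 3 each). For Sstr4 a log2 fold change of 0.72 (SE 0.17) had an adjusted p of 0.263 by edgeR's quasi-likelihood test, 0.256 by limma-voom and 0.0274 by DESeq2. Without stress replicate 1 it was 0.81 with an edgeR adjusted p of 0.0571, and over all alternatives it ran from 0.56 to 0.86 and the adjusted p from 0.0274 to 0.741.

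Sstr1 (chromosome 12, 58211772 to 58214444) encodes a receptor known on axons and as an autoreceptor of somatostatin neurons in some brain regions. It was at 16.9, 28.2 and 28.8 CPM in stress replicates 1, 2 and 3, against 32.2, 37.7 and 33.5 CPM in control replicates 1, 2 and 3. All stress libraries lay below all controls, and stress replicate 1 was lowest by a wide margin. Its log2 fold change of -0.49 (SE 0.19, adjusted p = 0.532 by edgeR's quasi-likelihood test) was -0.28 without that library, where the edgeR adjusted p was 0.308, the lowest of a range over alternatives that reached 0.860.

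Sstr3, the gene of the somatostatin receptor of neuronal primary cilia, stood at 41.4, 34.2 and 35.1 CPM in stress replicates 1, 2 and 3. Its levels were 34.9, 26.9 and 32.2 CPM in control replicates 1, 2 and 3, so that only control replicate 1 reached into the stress range. For Sstr3 a log2 fold change of 0.24 (SE 0.12) had an adjusted p of 0.645, and was 0.15 with stress replicate 1 left out and 0.14 with control replicate 2 left out. Sstr2, whose product is the main target of the analogue octreotide and is found on dendrites of many forebrain neurons, was at 7.75, 17.2 and 11.3 CPM in stress replicates 1, 2 and 3, against 12.1, 13.0 and 14.6 CPM in control replicates 1, 2 and 3. The stress libraries spread to both sides of the controls. The Sstr2 log2 fold change of -0.14 (SE 0.25, adjusted p = 0.924) was 0.10 without stress replicate 1, -0.47 without stress replicate 2, -0.09 without stress replicate 3 and -0.05 without control replicate 3.

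Seen as shares of the summed somatostatin receptor level per kilobase, the family's make-up differed between the groups while its sum did not separate them. Sstr4 supplied 45.3%, 41.7% and 45.9% of the sum in the stress libraries and 24.8%, 32.6% and 30.1% of it in the controls, each in the order of replicates 1, 2 and 3. Sstr1 supplied 21.1%, 27.01% and 27.7% in stress, against 40.2%, 40.4% and 37.3% in controls. For both genes the groups were apart in every library. The ratio of Sstr4 to Sstr1 per kilobase, which no scaling of libraries can alter, was 2.15, 1.54 and 1.65 over the stress libraries and 0.616, 0.806 and 0.807 over the controls. Sstr4 was thus the larger of the pair in every stress library and the smaller in every control library. The pair was picked with its values known, so the ratio is given without a test. The summed level was 39.2, 50.99 and 50.8 CPM per kilobase in stress, against 39.1, 45.6 and 43.9 in controls.

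Within the NPY receptors, Npy1r made up 17.1%, 34.1% and 33.5% of the summed level per kilobase in the stress libraries, in the order of replicates, and 33.9%, 41.5% and 43.6% in the control libraries. Npy2r made up 75.5%, 51.8% and 54.7% in stress, against 55.5%, 44.9% and 41.9% in controls. Control replicate 1 lay within the stress range for both genes. The NPY receptors therefore showed no separation of the kind seen between Sstr4 and Sstr1.

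**Figure D2:**
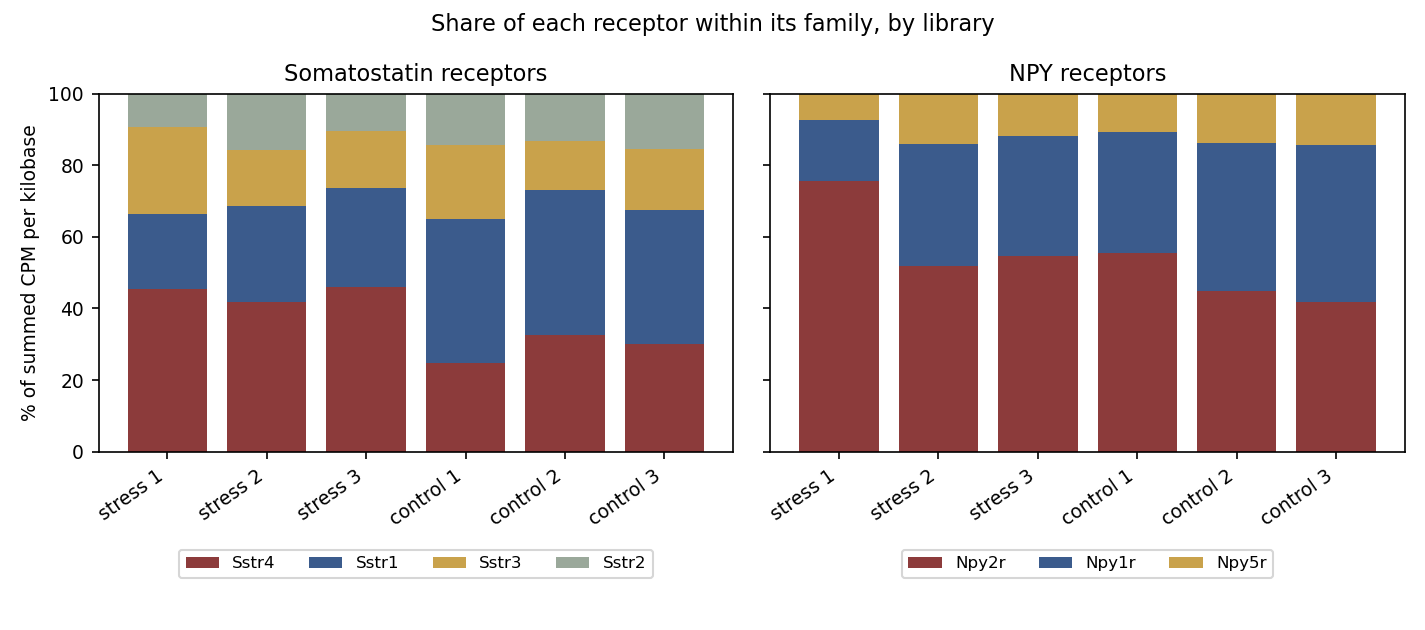
Share of each gene in the summed CPM per kilobase of its receptor family (y axis, percent), 1 bar per library with stress libraries left of control libraries, for somatostatin receptors (left panel) and NPY receptors (right panel). Sstr4 takes 41.7% to 45.9% in stress libraries and 24.8% to 32.6% in controls, and Npy2r takes 75.5% in stress replicate 1.

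Cck encodes the CCK precursor, made both in a class of basket cells and, at the level of RNA, in many excitatory neurons. It was at 110.2, 137 and 133 CPM in stress replicates 1, 2 and 3, against 129.7, 151 and 141 CPM in control replicates 1, 2 and 3. The ranges overlapped. The Cck log2 fold change of -0.15 (SE 0.10, adjusted p = 0.742) was -0.06 once stress replicate 1, the library with the lowest level, was left out, and -0.09 without control replicate 2. The limma-voom 95% interval of the difference ran from -0.38 to 0.07.

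Cckbr (chromosome 7, 105425731 to 105470898) encodes the CCK-B receptor, the main CCK receptor of the forebrain. It was at 6.99, 14.6 and 5.61 CPM in stress replicates 1, 2 and 3, against 15.4, 13.5 and 15.96 CPM in control replicates 1, 2 and 3. Stress replicates 1 and 3 lay far below all controls, and stress replicate 2 lay among them. The Cckbr log2 fold change of -0.73 (SE 0.28) had an adjusted p of 0.555 by edgeR's quasi-likelihood test. Leaving out stress replicate 2 gave -1.25 with an edgeR adjusted p of 0.0527, leaving out stress replicate 3 gave -0.47, and leaving out stress replicate 1 gave -0.59. Adjusted p-values for Cckbr over the alternatives ran from 0.0527 to 0.835.

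Markers of neocortex and entorhinal cortex, 6 of 6 detected, lay in both directions. Of the 6, 4 were lower in every stress library than in any control and 1 was higher. Cux2, one of the lower ones, was at 23.8, 37.4 and 20.99 CPM in stress replicates 1, 2 and 3, against 50.7, 45.5 and 54.2 CPM in control replicates 1, 2 and 3. Crym, the higher one, was at 208, 153 and 204 CPM in stress, against 101, 121 and 149 CPM in controls. Stress replicates 1 and 3, where Cckbr was lowest, thus had the lowest Cux2 and the highest Crym. Lamp5 overlapped between the groups. The sum over the list, of which Crym was a large part, was 426 to 436 CPM in stress and 456 to 467 CPM in controls. The part of these markers in the Cckbr level was not tested.

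**Figure D3:**
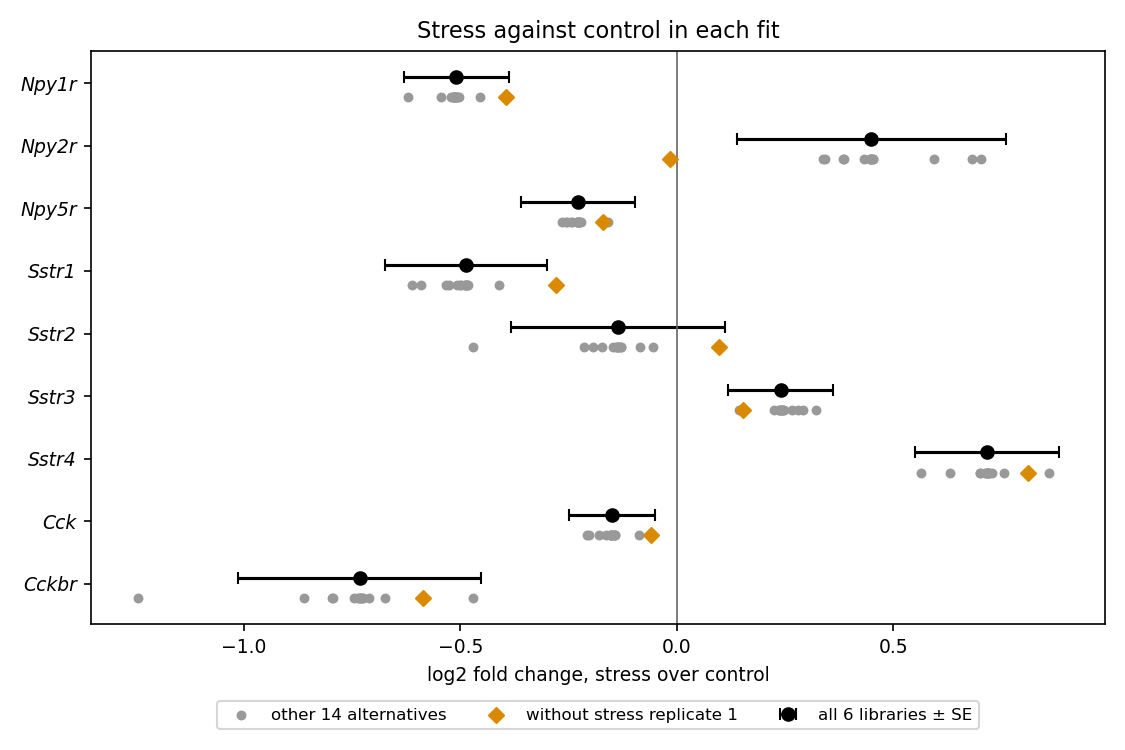
Log2 fold change of stress over control (x axis) for each gene (rows), with all 6 libraries (black, ± SE), without stress replicate 1 (orange) and under the other 14 alternatives (grey). Sstr4 stays between 0.56 and 0.86, whereas Npy2r moves to -0.02 and Sstr2 to 0.10 without stress replicate 1.

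The ligands of the same systems were read from a list of 11 other ligand and receptor genes, of which 3 were tested. Npy itself was at 27.4, 22.1 and 22.9 CPM in stress replicates 1, 2 and 3, against 16.3, 18.04 and 18.9 CPM in control replicates 1, 2 and 3. Each stress library lay above each control. The Npy log2 fold change of 0.44 (SE 0.12) had an adjusted p of 0.342 and did not pass. Sst, the somatostatin gene, was at 80.3, 101 and 84.8 CPM in stress, against 62.3, 73.2 and 85.4 CPM in controls, with overlapping groups, a log2 fold change of 0.26 (SE 0.13) and an adjusted p of 0.618. Without control replicate 1 or stress replicate 2 the Sst value was 0.16. Cort, for the somatostatin-related peptide cortistatin, was at 0.764, 2.56 and 1.35 CPM in stress, against 2.18, 1.57 and 2.45 CPM in controls, and its log2 fold change of -0.41 (SE 0.42, adjusted p = 0.850) was -0.09 with stress replicate 1 left out and -0.94 with stress replicate 2 left out. The remaining receptors Npy4r, Npy6r, Sstr5 and Cckar had at most 7 counts in any library, and no count was recorded for Pyy, Ppy or Gast, where 0 counts allow up to 0.297 to 0.361 CPM.

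Enzymes that make and destroy the peptides were followed in lists of 11 and 10 genes, all tested, and 0 were called in either direction. Pcsk1, the convertase that cleaves peptide precursors, was at 30.1, 37.4 and 30.0 CPM in stress replicates 1, 2 and 3, against 39.2, 40.8 and 46.2 CPM in control replicates 1, 2 and 3. Pam, the enzyme that amidates the ends of NPY and CCK, was at 259.9, 309 and 302 CPM in stress, against 325, 359 and 378 CPM in controls. Both lay below all controls in every stress library. The log2 fold change was -0.37 for Pcsk1 (SE 0.11, adjusted p = 0.441 by edgeR's quasi-likelihood test) and -0.29 for Pam (SE 0.09, adjusted p = 0.449). The processing list as a whole had its median log2 fold change at 0.04, between 0.01 without stress replicate 2 and 0.07 without control replicate 2, and 6 of 11 were positive, where the median over all tested genes was 0.0038. Among breakdown enzymes, the median was -0.02 with 7 of 10 negative, and -0.07 with stress replicate 1 left out. The peptidase gene Dpp4, whose product trims NPY, had a log2 fold change of -1.19 (SE 0.47, adjusted p = 0.532) and that of Anpep was -0.53 (SE 0.34, adjusted p = 0.742), at levels of at most 4.47 and 3.51 CPM. With 1 library left out, Dpp4 ran from -1.79 without stress replicate 2 to -0.81 without stress replicate 1, and Anpep from -0.76 without control replicate 2 to -0.22 without control replicate 1. The 7 genes of dense-core vesicle cargo and release had a median of 0.03, between 0.01 without control replicate 2 and 0.11 without stress replicate 2, and 6 were positive. The log2 fold change of Vgf was 0.35 (SE 0.15), and 0.19 without control replicate 1. That of Cadps2 was 0.49 (SE 0.29), but 0.76 without stress replicate 1, 0.31 without control replicate 1 and 0.22 without stress replicate 3.

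Signalling partners of the receptors were likewise not called, with 0 of 31 tested genes past the threshold over 4 lists. Of 11 genes of the Gi branch, 8 were positive, and the median log2 fold change stood at 0.06, or 0.09 when control replicate 2 was left out. The adenylyl cyclase genes diverged, with Adcy8 at 19.4, 46.3 and 37.0 CPM in stress replicates 1, 2 and 3, against 55.8, 56.6 and 65.3 CPM in control replicates 1, 2 and 3. Adcy5, a cyclase abundant in striatum, was at 206, 112 and 126 CPM in stress, against 87.6, 108 and 99.6 CPM in controls. Each stress library lay above each control, and stress replicate 1, the library highest in striatum and amygdala markers, was highest. The part of those markers in the Adcy5 level was not tested. The log2 fold changes of Adcy8 and Adcy5 were -0.79 (SE 0.26) and 0.59 (SE 0.20), and -0.51 and 0.28 without stress replicate 1. All 3 tested GIRK channel genes, the potassium channels that Gi-coupled receptors open, were negative, with a median log2 fold change of -0.19 that ran from -0.46, without stress replicate 2, to -0.14 over the alternatives. It was -0.35 with control replicate 3 left out. Fits without control replicate 2, stress replicate 2 or stress replicate 3 also tested Kcnj5, at -1.08, -1.29 and -0.92. This gene had at most 14 counts in any library. The medians of those fits, -0.35, -0.46 and -0.39, are thus not over the same genes as the -0.19. Kcnj9, at 47.7 CPM in stress replicate 1 and 94.7 to 119.9 CPM in the other libraries, was at -0.48 (SE 0.26) on the log2 scale, and at -0.20 with that library left out. Without stress replicate 2 it was -0.73. The log2 fold change of Kcnj3 was -0.13 (SE 0.11), and -0.01 without stress replicate 1. That of Kcnj6, whose libraries overlapped between the groups, was -0.19 (SE 0.17), but 0.05 without control replicate 1.

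Of the 11 tested Gq genes, 8 were positive, and their median log2 fold change was 0.17, or 0.06 with stress replicate 1 left out. For 5 of the 11 all stress libraries lay above all controls, where 6.76% of all tested genes were higher without overlap. Only 3 of the 11 were higher at an unadjusted p under 0.05 by edgeR, where 3.86% of all tested genes were. The list was chosen with earlier results of these data known, so these counts are given without a test. Prkcb, the gene of a protein kinase C, was at 1562, 1216 and 1269 CPM in stress replicates 1, 2 and 3, against 957, 993 and 1089 CPM in control replicates 1, 2 and 3. Each stress library lay above each control, and stress replicate 1 was highest. The Prkcb log2 fold change of 0.41 (SE 0.10) had an adjusted p of 0.308 by edgeR's quasi-likelihood test and 0.0280 by DESeq2. The 6 genes of receptor desensitisation had a median of -0.04, or 0.02 with stress replicate 1 left out, with Arrb1 at -0.15 (SE 0.07), or -0.09 without stress replicate 1, and Grk6 at 0.09 (SE 0.07), or 0.05 without control replicate 1.

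**Figure D4:**
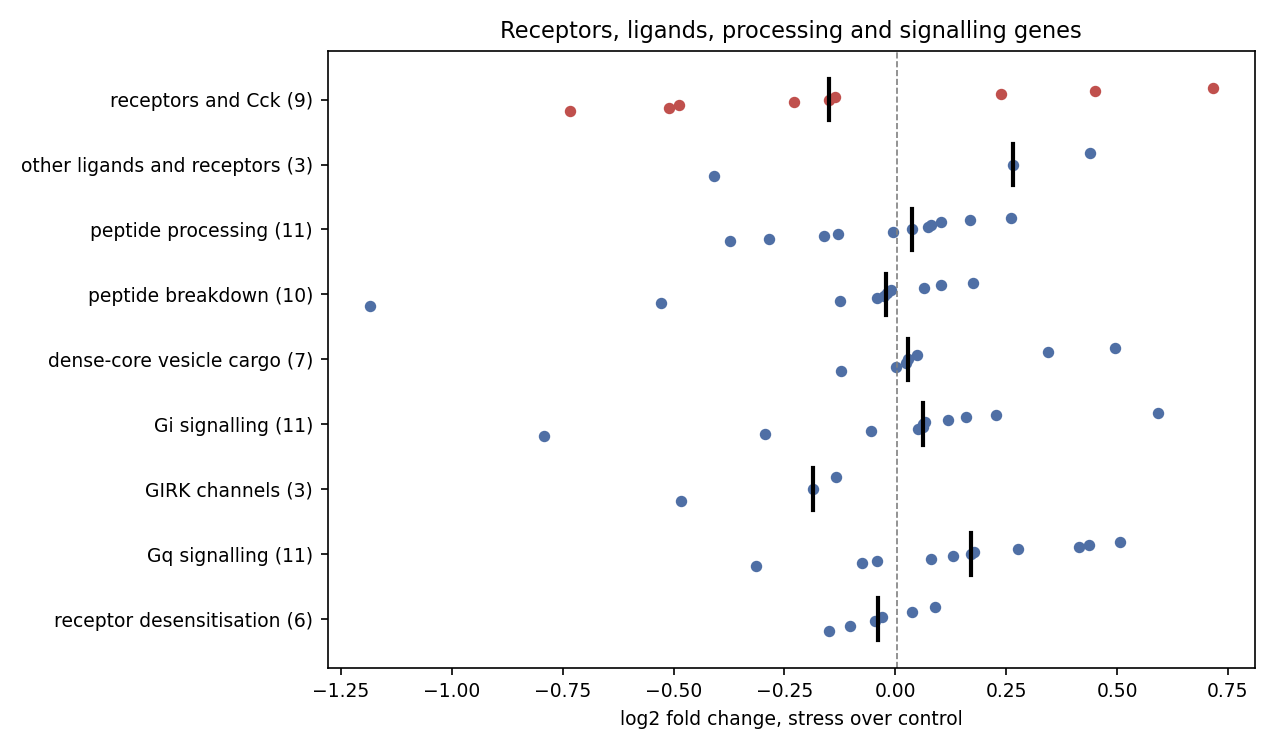
Log2 fold change of stress over control (x axis) for each tested gene, 1 row per list with its number of tested genes in brackets, the 9 receptor and Cck genes in red, list medians as black bars and the median of all tested genes as a dashed line. The 9 genes spread from -0.73 for Cckbr to 0.72 for Sstr4 around a median of -0.15, and the Gq list has its median at 0.17.

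The genes whose levels ran most alike over the 6 libraries were picked from 12446 by Pearson's r of log2 CPM, which over so few libraries is high for some gene by selection alone. For Npy1r these were Tmem132e and Dact2, for Npy2r Klhl9 and Epha4, for Npy5r Cthrc1 and the GABA-synthesis gene Gad1, and for Cck Klhl32 and Cbln2. For Sstr1 they were Atg2b and Plekho1, for Sstr2 Cecr5 and Dazap1, for Sstr3 Mon1a and Rsl1, for Sstr4 Ndufa7 and Sez6, and for Cckbr Tesk2 and Smoc1. The r values ran from 0.984 to 0.997, and stress replicate 1 is one of the points in all of them.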

How the data were processed

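Per the labels, total RNA of ventral dentate gyrus was sequenced from stranded libraries depleted of ribosomal RNA, single-end, in one pool over several lanes. The values deposited by the authors are raw read counts per gene symbol. Per the submitters' processing notes, the tools included TopHat2 2.0.9, Trimmomatic 0.33, HTSeq 0.6.1, FastQC 0.11.3 and edgeR 3.12.0, on GRCm38 (mm10). The annotation and the strand setting of the counting were not given in the sources used. Reads in rows that name no gene were left out, of which those without a feature made up 59.5% to 63.1% of each library. Gene counts summed to 8305753 to 10107953 per library, and 3 counts, the most that a count of 0 allows, equal 0.297 to 0.361 CPM, for counting error only.

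In R 4.3.3, genes passing filterByExpr were tested, after scaling with trimmed means of M values, by edgeR 4.0.16 (quasi-likelihood F-test, two-sided, group as the only term), with Benjamini-Hochberg adjustment over 14058 genes and a threshold of 0.05. Unless another test is named, p-values come from it. SEs and 95% intervals come from limma 3.58.1 (voom), and DESeq2 1.42.0 was an alternative. The fits were tested on simulated counts. CPM are counts set to one total over the tested genes, after that scaling. GENCODE M21 (GRCm38) gave positions and merged exon lengths, with 22708 of 24062 symbols matched to 1 gene, and promoter sequences are RefSeq's.

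The 9 genes and all lists were chosen with earlier results of these data known. Named genes are the 9, Npy, Sst, Cort, the 2 of smallest p per list, and the 2 most alike each gene (average log2 CPM of at least 1, 0.5 CPM added, names of pseudogenes, small nucleolar RNAs, microRNAs, predicted genes and clones passed over). Not every gene this rule gives is reported here. Bok, Cux2, Crym, Lamp5, Pvalb, Reln, Sv2b, Nwd2, Tcf7l2, Kcnj5 and Kcnj6 were named after their values were seen. So were Slc39a11, Npy4r, Npy6r, Sstr5, Cckar, Pyy, Ppy and Gast. Replicates are biological per the labels, and p-values measure the spread between these libraries.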

Additional observations from a re-analysis of the deposited data

How the results depend on the processing

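Of the 9 genes, 7 kept their direction under all 15 alternatives, which changed scaling, filter, test or dispersion fit, added the replicate block, or left out 1 library. The unscaled library totals were added after the data were seen. Without stress replicate 1, Npy2r reversed to -0.015 and Sstr2 to 0.098, and over the left-out libraries they reached 0.70 and -0.47. DESeq2 called 1 gene of the set higher (Sstr4) and 2 genes of the lists, and over all genes 39 higher and 68 lower; limma-voom called 1 lower. Without 1 library, calls over all genes ran from 0 to 11 higher and 0 to 30 lower, calls in the set and in the lists stayed at 0, and genes of the set without overlap ran from 1 to 3 higher and 3 to 5 lower. With a library fewer, a lack of overlap is easier to reach. No share over all tested genes is given for those fits, so these counts show nothing particular to the set. With the replicate block, 0 genes were called lower, against 4. Same-numbered libraries deviated from their group means with r of 0.139, -0.0033 and 0.047 over 14058 genes. Differently numbered pairs ran from -0.154 to 0.121. Whether same-numbered libraries share more than a number was not tested. The cause of these shifts was not tested. With 54 to 150 counts per library, counting error limits Cckbr, Sstr2 and Npy5r most.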
